A study of Mus musculus with 12 samples.

Results

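The genes described here are 32 genes of protein folding and quality control in the endoplasmic reticulum (ER), together with the sensors of the unfolded protein response (UPR). They were chosen by name, as rows whose gene symbol is on a fixed list, among 16288 genes listed in at least 1 library of an RNA-seq series. The list holds 12 chaperones and cofactors of the ER lumen or membrane, 6 isomerases and oxidases of disulfide bonds and prolines, 4 sensor genes (counting the factor Xbp1) and 10 genes of ER-associated degradation (ERAD). RNA came from C2C12 cells, an immortalized mouse myoblast line that fuses into myotubes when serum is withdrawn. Cells received the vehicle DMSO or 50 uM PFI-3, a small molecule ligand of bromodomains in the SWI/SNF ATPases BRM and BRG1 and in the related factor PB1, and the study asked what those bromodomains do in muscle differentiation. There were 6 groups of 2 libraries each, labelled A and B: proliferating cells (GM) with DMSO or PFI-3, cells 24 h after induction (DM 24h) with DMSO or PFI-3, and cells 48 h after induction (DM 48h) with DMSO or PFI-3. All groups, vehicle included, were pretreated for 12 h, and in the DM groups vehicle or compound was renewed every 24 h in differentiation medium with horse serum and insulin. No group carried a genetic change, and 1 cell line was used throughout.

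The ER folds and glycosylates proteins that are secreted or placed in membranes. When unfolded proteins build up there, BiP (Hspa5) leaves the sensors ATF6, IRE1 alpha (Ern1) and PERK (Eif2ak3). ATF6 is cleaved into a transcription factor, IRE1 alpha splices Xbp1 mRNA into the form that encodes an active factor, and PERK phosphorylates eIF2 alpha, which lowers translation and favours ATF4. ATF6 and XBP1 act through the ER stress element (ERSE) in promoters of chaperone genes. In muscle, parts of this response are known to be active during myoblast differentiation. Gene-level RNA counts do not separate spliced from unspliced Xbp1 and do not report cleavage of ATF6 or phosphorylation of PERK.

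The promoters are shown first because many of the genes described below share this element. RefSeq promoter windows of build GRCm38.p6 (250 bases before the gene start and 50 after) were present for 28 of the 32 genes, with Ero1l listed there as Ero1a. Both strands were searched for ERSE, which is CCAAT, then 9 bases of any kind, then CCACG. It was found in 9 of the 28 genes (32.1%), against 37 of all 27025 genes with a promoter window (0.137%), these 9 included. ERSE was searched because it is known from promoters of chaperone genes, so its share here is a description and not a test. The 9 genes were Calr, Canx, Creld2, Derl3, Dnajc3, Hsp90b1, Hspa5, Pdia6 and Syvn1, and Hsp90b1 held 2 copies. The related ERSE-II, which is ATTGG, 1 base of any kind and CCACG, was found in Dnajb11 and Herpud1. That is 7.14% of the 28 genes, against 0.0444% of all genes with a window. The core TGACGTGG was found in 0 of the 28 genes and in 0.714% of all genes with a window. The box CCACG alone, which every ERSE and ERSE-II also holds, was found in 24 of the 28 genes (85.7%). It was found in 35.5% of all genes with a window. A match describes the letters of the window and does not show that a factor bound there. The sequences are written 5′ to 3′ on the strand on which the element reads, with its boxes in capitals. For Hspa5, which encodes BiP, the 250 bases before the gene start are given on the plus strand, with 1 full ERSE close to the start.
Hspa5, chr2:34771840-34772089, plus strand: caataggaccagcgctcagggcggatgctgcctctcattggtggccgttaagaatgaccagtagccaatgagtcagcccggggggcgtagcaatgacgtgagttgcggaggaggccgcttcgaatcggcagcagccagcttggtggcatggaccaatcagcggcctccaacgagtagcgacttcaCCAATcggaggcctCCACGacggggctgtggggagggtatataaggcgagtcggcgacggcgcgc
The windows around the matches of 5 chaperone and isomerase genes with changed RNA levels, and of Herpud1, follow.
Hsp90b1, chr10:86705623-86705671, minus strand: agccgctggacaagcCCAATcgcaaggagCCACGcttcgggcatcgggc
Hsp90b1, chr10:86705518-86705566, plus strand: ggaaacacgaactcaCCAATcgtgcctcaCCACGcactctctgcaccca
Calr, chr8:84847060-84847108, plus strand: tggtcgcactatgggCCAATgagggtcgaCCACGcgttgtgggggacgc
Canx, chr11:50325785-50325833, minus strand: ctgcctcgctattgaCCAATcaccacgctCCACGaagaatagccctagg
Creld2, chr15:88819505-88819553, minus strand: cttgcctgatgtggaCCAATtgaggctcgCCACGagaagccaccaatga
Pdia6, chr12:17266476-17266524, plus strand: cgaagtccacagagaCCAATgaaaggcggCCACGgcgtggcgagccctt
Herpud1, chr8:94386362-94386402, plus strand: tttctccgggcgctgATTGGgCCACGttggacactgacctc
In these windows the 9 bases between the boxes of ERSE differ from gene to gene, while the boxes and their spacing are fixed by the search.

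**Figure D1:**
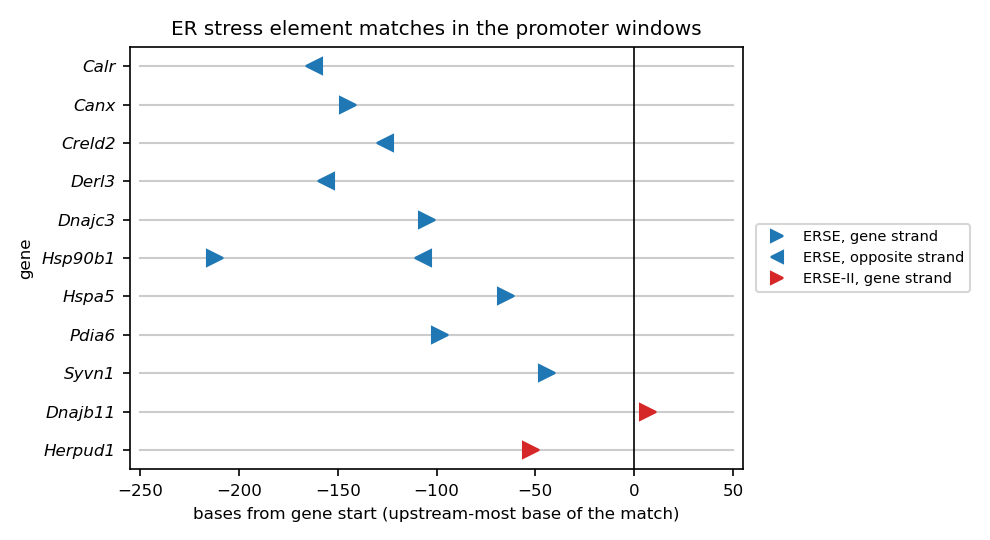
Position of each ERSE (blue) and ERSE-II (red) match relative to the gene start, in bases, for the 11 genes that hold one; each grey line is a 300-base promoter window and arrows point along the strand on which the element reads. All matches lie before the gene start except that of Dnajb11, and the Hspa5 match begins 65 bases before the start.

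The 12 libraries held between 12576374 and 13658352 expected counts, and 31 of the 32 genes passed the low-count filter of edgeR, which kept 12545 genes. The exception was Derl3, an ERAD gene of secretory cells, which stood between 0 and 0.164 CPM (counts scaled to the library total) in every library. Replicates of the GM groups lay farther apart than those of the DM groups: chi-square over degrees of freedom was 19.1 (DMSO) and 14.1 (PFI-3) in GM and between 1.75 and 2.13 in the DM groups, where counting error alone gives 1. The labels call the pairs biological duplicates without saying how they were made, so p-values measure the spread between these libraries. In the fit of 12 libraries each gene had 1 estimate of this spread, shared by all 6 groups. P-values in GM thus rest partly on the closer DM replicates, and those in DM partly on the wider GM replicates. All 8 myoblast markers examined were listed, with a summed level in GM of 1594.3 to 1619.0 CPM with DMSO and 1154.6 to 1208.6 with PFI-3. At DM 24h it was 3378.8 to 3432.3 with DMSO and 2397.2 to 2431.2 with PFI-3, and at DM 48h 5404.9 to 5505.8 and 4466.3 to 4647.9. Des was the highest of the 8 in every group, so this sum need not follow the other myoblast markers. The summed level of 7 markers of differentiating muscle was 6.13 to 11.5 CPM in GM with DMSO and 8.95 to 10.4 with PFI-3. It was 2340.4 to 2346.8 CPM at DM 24h with DMSO and 962.4 to 969.8 with PFI-3, and 15715.4 to 15826.7 at DM 48h with DMSO and 10363.2 to 10599.3 with PFI-3. Markers of endothelial, fat, bone and epithelial cells summed to at most 1.8 CPM per list, and those of macrophages and leukocytes to at most 9.55, mostly Cd68. In bulk RNA, fewer cells of a type and less RNA per cell cannot be told apart.

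In proliferating vehicle cells the 12 most abundant of the 32 genes were chaperones and isomerases, and the other folding genes lay in the range of the ERAD and sensor genes. Per length, on the FPKM scale, Calr (calreticulin, a calcium-binding lectin chaperone) stood highest at 732.6 and 863.3 in the 2 libraries. P4hb (protein disulfide isomerase), Hsp90b1 (GRP94), Hspa5, Pdia3 and Ppib (cyclophilin B) followed, with mean FPKM between 386.0 and 262.1. At the low end of the folding genes, Ero1l, Dnajc3, Sdf2l1 and Dnajb9 had mean FPKM of 16.8, 15.4, 14.5 and 11.3. The sensors were low: mean FPKM was 42.7 for Xbp1, 12.1 for Atf6, 7.74 for Ern1 and 4.55 for Eif2ak3. The ERAD genes other than Derl3 lay between 9.91 (Edem1) and 45.3 (Herpud1). All 32 genes together held 0.772% of the expected counts.

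Differentiation in vehicle was examined next, since it is the background for the PFI-3 effect. From GM to DM 48h, 14 of the 18 folding genes (chaperones, isomerases and oxidase) fell, 1 rose (Dnajb9) and 3 were not called (Dnajb11, Ero1l and Ppib), while 6 of the 9 ERAD genes tested and Atf6 rose. At DM 24h, 21 of 31 genes were called against GM (12 higher, 9 lower), where 60.6% of all genes tested were called (30.6% higher, 30% lower). At DM 48h, 25 were called (9 higher, 16 lower), with 73.1% of all genes called (37.2% higher, 35.9% lower), and between DM 24h and DM 48h 22 were called (6 higher, 16 lower), with 48.1% of all genes called (24.2% higher, 23.9% lower). A call here means an adjusted p under 0.05 in edgeR's quasi-likelihood test over all 12545 genes. The median log2 fold change of the 31 genes at DM 48h was -0.24, beside 0.026 over all genes tested. The shares of genes called stood close to the genome-wide share at DM 24h and DM 48h against GM, so the counts say little about these genes in particular.

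Among the 12 chaperones and cofactors, 10 were lower at DM 48h than in GM and 1 was higher. Hspa5 stood at 703.8 and 711.5 CPM in GM, then 535.2 and 509.0 at DM 24h, then 433.5 and 451.1 at DM 48h. The stages did not overlap, and the change from GM to DM 48h was -0.68 ± 0.07 (log2 fold change ± SE, adjusted p 1.67e-06). Creld2, a secreted UPR target, showed the largest fall of the 31, from 52.8 and 57.4 to 25.2 and 25.0 CPM (-1.13 ± 0.11). Hyou1 (the large chaperone GRP170) fell by 0.90 on the log2 scale and Hsp90b1 by 0.86, and Dnajc3 was the member of this group nearest to no change among the called ones (-0.25 ± 0.09, adjusted p 0.031). Its call was lost without either library of the DM 48h DMSO group (adjusted p 0.086 and 0.117) or of the GM DMSO group (0.0624 and 0.0581). Dnajb9 (ERdj4, a cochaperone that hands BiP to IRE1 alpha and clients to ERAD) went the other way, from 21.9 and 20.2 to 34.1 and 37.2 CPM (0.76 ± 0.10).

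Of the isomerases, 4 fell to DM 48h. Pdia4 fell by 0.98, from 184.5 and 192.3 to 96.2 and 95.2 CPM. Pdia3, Pdia6 and P4hb fell by 0.86, 0.83 and 0.60. Ppib was not called in any of the 3 vehicle comparisons (0.15 ± 0.07 at DM 48h, adjusted p 0.0693). Ero1l, the oxidase that recharges protein disulfide isomerase, moved down and back: it stood at 81.9 and 70.0 CPM in GM, then 44.7 and 46.2 at DM 24h, then 73.9 and 75.8 at DM 48h. Its fall to DM 24h (-0.74 ± 0.12) and its rise from there (0.72 ± 0.12) were both called, with adjusted p 0.000241 and 0.000449.

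The sensors did not move as a block. Atf6 rose stepwise, from 93.5 and 92.5 CPM in GM to 145.0 and 141.6 at DM 24h, then to 238.9 and 231.3 at DM 48h (1.34 ± 0.07 in all, adjusted p 4.46e-09). Xbp1 rose from 85.8 and 107.2 to 135.2 and 139.5 CPM at DM 48h (0.51 ± 0.09). Eif2ak3 was highest at DM 24h, at 32.1 and 31.7 CPM, with 19.4 and 20.7 in GM and 22.0 and 20.1 at DM 48h. Ern1 was not called in any vehicle comparison and lay between 25.7 and 33.2 CPM. In the ERAD group, 6 of 9 tested genes rose to DM 48h and 2 fell. Herpud1, a membrane protein that assembles the HRD1 complex, rose most, from 82.5 and 93.8 to 256.9 and 242.1 CPM (1.5 ± 0.13, adjusted p 4.77e-07). Edem3 and Derl1 rose by 0.92 ± 0.08 and 0.85 ± 0.07. Edem1, a mannosidase-like lectin, rose to DM 24h (0.34 ± 0.07) and stood below GM at DM 48h (-0.49 ± 0.08).

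**Figure D2:**
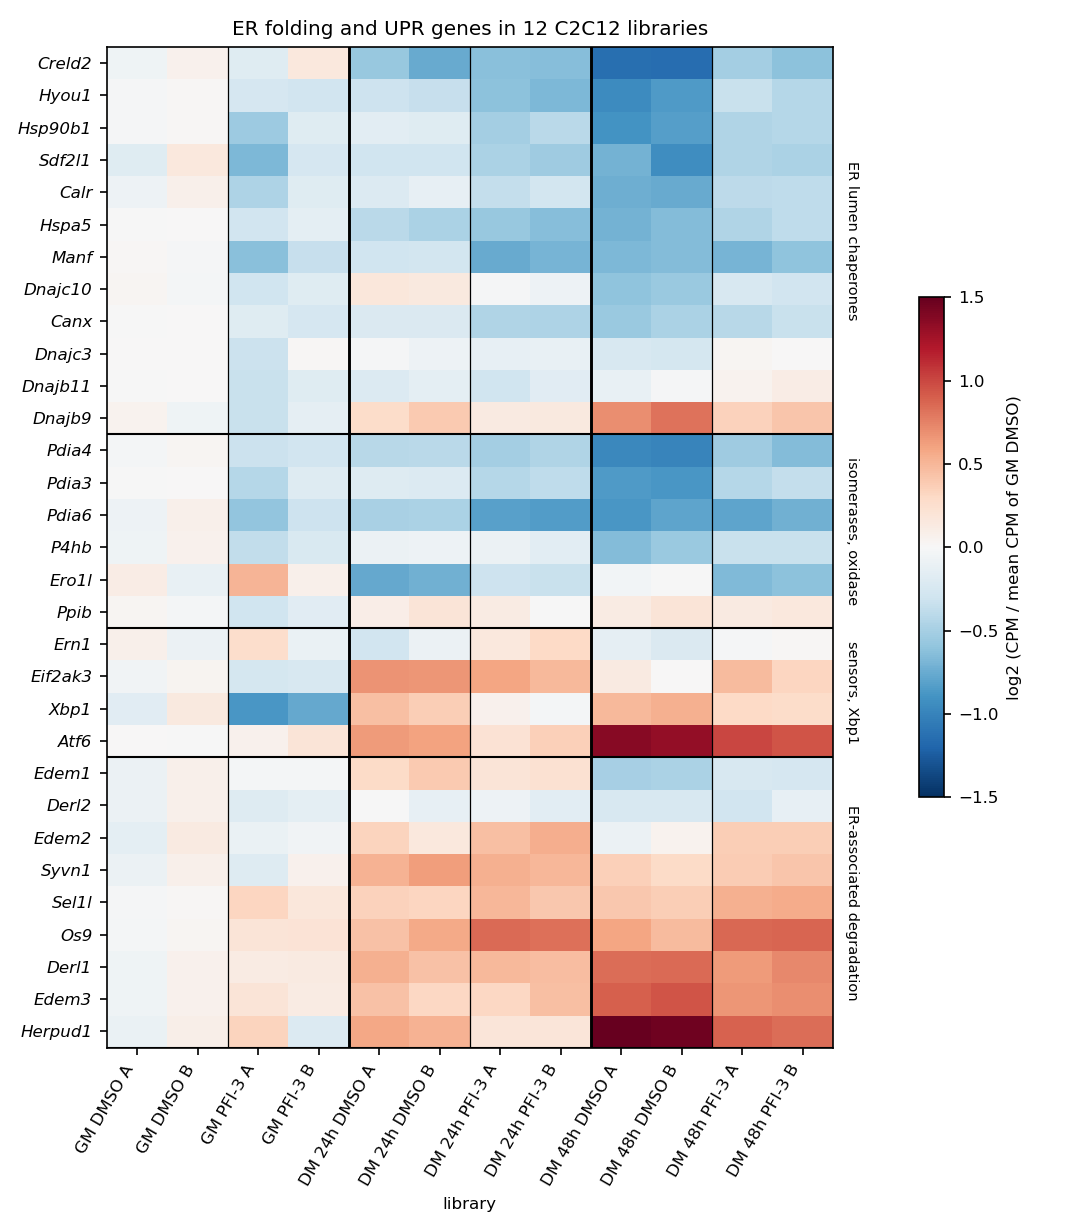
Colour gives log2 of CPM over the mean CPM of the GM DMSO group for 31 genes (rows, by role) in each of the 12 libraries (columns). The DM 48h DMSO columns hold the deepest blue among chaperones and isomerases and the deepest red for Atf6 and Herpud1, and the DM 48h PFI-3 columns are paler for these genes.

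The PFI-3 effect was then read at each stage. In GM, 13 of 31 genes were called, 1 higher and 12 lower, where 11.6% of all genes tested were called (5.46% higher, 6.15% lower). At DM 24h, 11 were called, 3 of them higher and 8 lower, against 23.6% of all genes (12.2% higher, 11.4% lower). At DM 48h, 18 were called, 13 higher and 5 lower, against 27.4% of all genes (13.4% higher, 14% lower). The medians of the 31 genes were -0.22, -0.13 and 0.18, and those of all genes -0.01, -0.001 and 0.001. The summed level of the 32 genes was 7796 and 8191 CPM with DMSO and 6369 and 7081 with PFI-3 in GM. At DM 24h it was 7363 and 7405 with DMSO and 6615 and 6658 with PFI-3. At DM 48h the order was the opposite, with 5888 and 5984 for DMSO and 6723 and 6825 for PFI-3, and the groups did not overlap at any stage. The 18 chaperone, isomerase and oxidase genes summed to 4451 and 4574 CPM with DMSO and 5430 and 5525 with PFI-3 at DM 48h. The 10 ERAD genes summed to 1012 and 991 CPM with DMSO and 929 and 947 with PFI-3, an order set by Herpud1: the 9 others summed to 755 and 749 with DMSO and 766 and 789 with PFI-3. Over the 9 tested ERAD genes the median was 0.08, with 6 above 0 and 3 below. The summed myoblast markers given above were lower with PFI-3 at all 3 stages, and those of differentiating muscle at DM 24h and DM 48h, and their part in the differences of the ER genes was not tested.

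These counts rest on few libraries. In GM the calls of Hyou1, Manf, Pdia4, Pdia6 and Xbp1 were kept without any 1 library, the count was 6 without PFI-3 library A of GM and 7 without any 1 DM library, and none of the 31 was called when only the 4 GM libraries were fitted (edgeR, with 38 genes called in all and 8 of the 31 at an unadjusted p under 0.05). At DM 24h the call of Manf was kept without any 1 library, and the count was 3 without DMSO library A or PFI-3 library B of that stage, 4 without PFI-3 library A and 5 without DMSO library B. At DM 48h the calls of Atf6, Creld2, Dnajc10, Ero1l, Herpud1, Hyou1, Pdia3 and Pdia4 were kept, and the count was 11 without any 1 library of that stage. Fitting the 8 DM libraries without GM gave 17 calls at DM 24h and 25 at DM 48h. Over all 12545 genes that fit called 5558 and 5841, against 2966 and 3438 in the fit of 12 libraries. In GM, limma on log2(FPKM + 1) called 5 of the 31 (2 higher, 3 lower), and its split over all genes was 1057 higher and 347 lower, against 685 higher and 771 lower with edgeR. At DM 48h it called 17 of the 31 higher and 4 lower, and its split over all genes was 2554 higher and 1356 lower, against 1682 and 1756 with edgeR (2485 and 1148 with log2(FPKM + 0.1)). At DM 24h it called 3 of the 31 higher and 6 lower, with 1863 higher and 1143 lower over all genes, against 1533 and 1433. At that stage DESeq2-style size factors gave 1348 higher and 1706 lower genes.

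**Figure D3:**
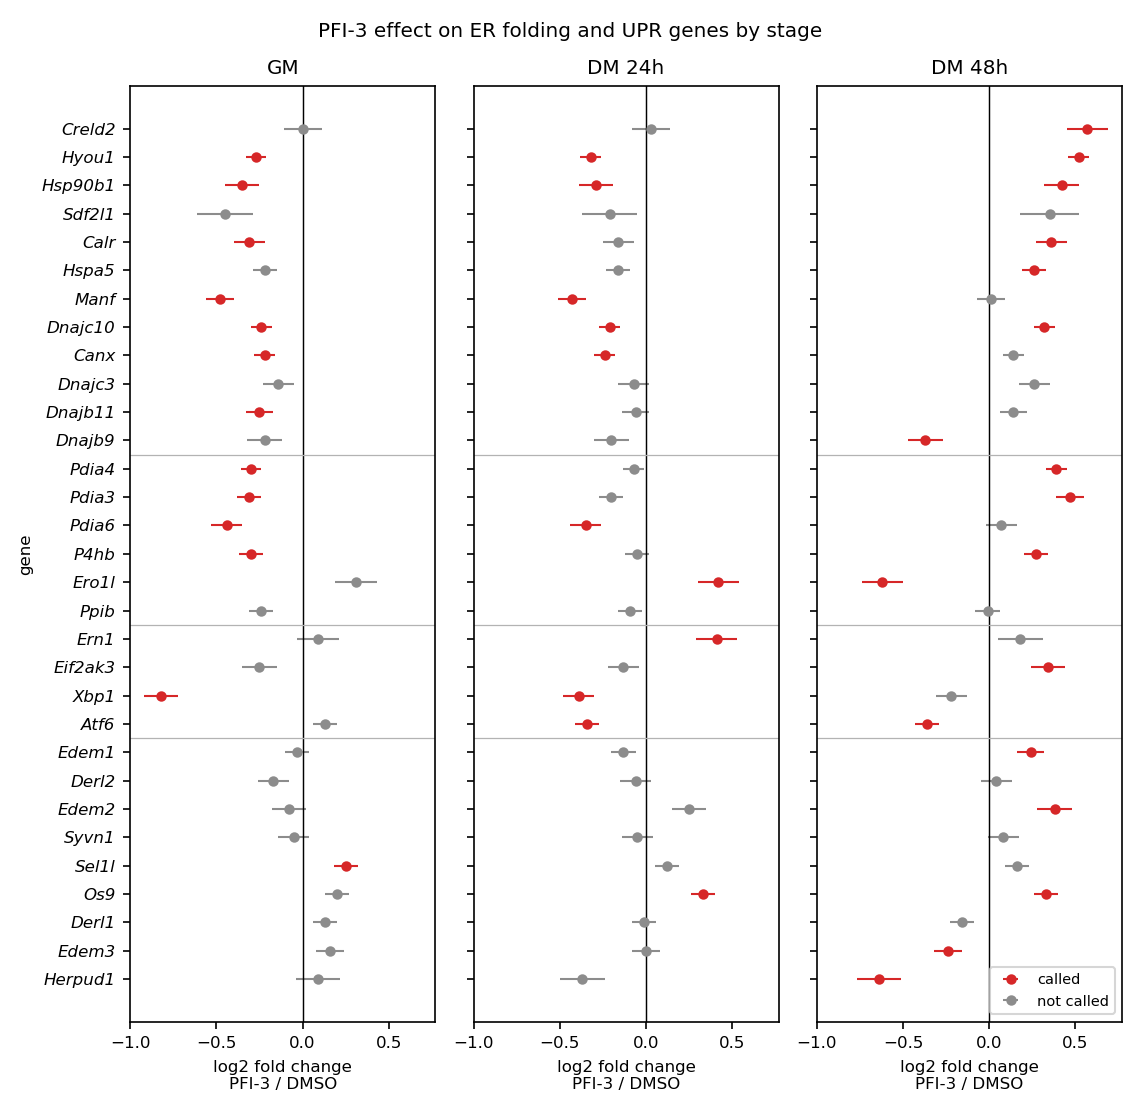
Log2 fold change of PFI-3 over DMSO with its standard error for 31 genes (rows, by role) at the 3 stages, from the edgeR fit; red points are called at adjusted p under 0.05. Most chaperones and isomerases lie left of 0 in GM and at DM 24h and right of 0 at DM 48h, while Atf6, Herpud1, Dnajb9 and Ero1l lie left of 0 at DM 48h.

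Among the 12 chaperones, 7 were called lower with PFI-3 and 0 higher in GM; 11 of the 12 were below 0 at DM 24h, with 5 called lower; and at DM 48h 6 were called higher and 1 lower. Hyou1 stood at 253.4 and 258.6 CPM with DMSO and 214.7 and 209.7 with PFI-3 in GM. It read 207.0 and 201.1 against 166.9 and 160.9 at DM 24h, then 132.6 and 142.1 against 203.8 and 190.4 at DM 48h. The treatments did not overlap at any stage, and the higher group changed from DMSO to PFI-3. The changes were -0.27 ± 0.06 (adjusted p 0.0187), -0.32 ± 0.06 (0.00419) and 0.52 ± 0.06 (9.55e-05). The DM 24h call was lost without PFI-3 library B of that stage (0.0502).

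Hsp90b1, the ER member of the HSP90 family, stood at 852.6 and 874.0 CPM with DMSO and 590.0 and 763.3 with PFI-3 in GM. Both PFI-3 libraries were lower, and they lay farther apart than the DMSO libraries. At DM 48h it stood at 465.4 and 485.3 with DMSO and 633.3 and 642.8 with PFI-3, a change of 0.42 ± 0.10 (adjusted p 0.00629). That call was lost without DMSO library A of DM 48h (0.0614). In GM (-0.35 ± 0.10, adjusted p 0.0362) the call was lost without PFI-3 library A of GM (0.123) or any 1 DM library (0.0594 to 0.0632), and at DM 24h (-0.29 ± 0.10, 0.0495) without any 1 DM library (0.076 to 0.264).

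Hspa5 had the same order with smaller steps. It stood at 578.0 and 639.3 CPM with PFI-3 in GM, below both DMSO libraries, and was not called (-0.22 ± 0.07, adjusted p 0.055). At DM 24h it stood at 478.6 and 454.0 with PFI-3 (-0.16 ± 0.07, 0.0992). At DM 48h it stood at 515.9 and 542.4, above both DMSO libraries, and was called higher (0.26 ± 0.07, 0.0133). Without DMSO library A, DMSO library B or PFI-3 library B of DM 48h the adjusted p was 0.107, 0.054 or 0.104. Calr, the most abundant gene of the list, was 19.6% lower in GM (adjusted p 0.0415) and 28.2% higher at DM 48h (0.0107). The 4 DM 48h libraries of Calr read 927.6 and 912.6 CPM with DMSO and 1176.0 and 1182.5 with PFI-3. Its GM call was lost without GM DMSO library B (0.0869), GM PFI-3 library A (0.174) or any 1 DM library (0.066 to 0.0693), and its DM 48h call without any 1 library of that stage (0.0588 to 0.0796).

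Creld2 and Dnajc10 were the other chaperone genes whose DM 48h calls were kept without any 1 library. Creld2 stood at 25.2 and 25.0 CPM with DMSO and 38.7 and 35.9 with PFI-3 at DM 48h (0.57 ± 0.12, adjusted p 0.00355), the largest rise of the 31 genes at that stage. In GM its groups overlapped, at 52.8 and 57.4 against 48.5 and 61.6, and at DM 24h they overlapped too. Dnajc10 (ERdj5, a reductase that unfolds ERAD clients) stood at 107.8 and 110.6 with DMSO and 138.6 and 133.7 with PFI-3 (0.32 ± 0.06, 0.00308). Dnajc10 was also called lower with PFI-3 in GM and at DM 24h. The GM call was lost when any 1 of 10 libraries was left out, and the DM 24h call when any 1 of 6 was. Canx (calnexin, the membrane-bound partner of calreticulin) was called lower in GM (-0.22 ± 0.06, 0.0383) and again at DM 24h (-0.24 ± 0.06, 0.0134), without a call at DM 48h (0.14 ± 0.06, 0.109). The Canx calls were lost without GM DMSO library A (0.055), GM PFI-3 library B (0.111) or any 1 DM library (0.0553 to 0.07) in GM, and without any 1 DM 24h library (0.0817 to 0.0896) at DM 24h.

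Manf, a secreted ER protein that binds BiP, differed from this pattern at DM 48h. It stood at 148.3 and 145.1 CPM with DMSO and 95.2 and 115.0 with PFI-3 in GM (-0.48 ± 0.08, adjusted p 0.00418), and at 119.1 and 120.9 against 87.1 and 90.5 at DM 24h (-0.43 ± 0.08, 0.00317). At DM 48h the groups overlapped, at 91.9 and 93.3 against 90.5 and 96.5 (0.01 ± 0.08, 0.928). Dnajb9 was called lower at DM 48h, at 34.1 and 37.2 with DMSO and 26.9 and 28.1 with PFI-3 (-0.37 ± 0.10, 0.013), and that call was lost without DMSO library B (0.113), PFI-3 library A (0.0954) or PFI-3 library B (0.0524) of DM 48h. Dnajb11 (ERdj3) was called lower in GM (-0.25 ± 0.08, 0.0496), a call lost without any 1 library but GM PFI-3 B (0.063 to 0.187). Dnajc3 (p58IPK) and Sdf2l1, a partner of ERdj3, were not called at any stage.

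Of the 5 isomerases, Pdia3, Pdia4 and P4hb were called lower with PFI-3 in GM and higher at DM 48h, Pdia6 was called lower at the first 2 stages and Ppib was not called at any stage. Pdia3 (ERp57, which works with calnexin and calreticulin) stood at 714.6 and 721.8 CPM with DMSO and 532.4 and 629.2 with PFI-3 in GM (-0.31 ± 0.07, adjusted p 0.0233). At DM 48h it stood at 400.0 and 390.9 with DMSO and 532.1 and 560.6 with PFI-3 (0.47 ± 0.08, 0.000703). The GM call was lost without PFI-3 library A of GM (0.089). Pdia4 (ERp72) changed by -0.30 ± 0.06 in GM (0.0107) and by 0.39 ± 0.06 at DM 48h (0.000842), where it stood at 96.2 and 95.2 with DMSO and 130.4 and 120.2 with PFI-3. P4hb was lower in GM (-0.30 ± 0.07, 0.0203; 0.08 without PFI-3 library A of GM) and higher at DM 48h (0.27 ± 0.07, 0.0138), and the latter call was lost without DMSO library A (0.121), PFI-3 library A (0.0703) or PFI-3 library B (0.0733) of DM 48h. Pdia6 was lower in GM (-0.44 ± 0.09, 0.00867) and at DM 24h (-0.35 ± 0.09, 0.0148; 0.073 to 0.0938 without any 1 library of that stage), and at DM 48h it was not called (0.07 ± 0.09, 0.585).

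Ero1l stood at 44.7 and 46.2 CPM with DMSO at DM 24h, against 61.2 and 60.1 with PFI-3, a change of 0.42 ± 0.12 (adjusted p 0.0298). At DM 48h it stood at 73.9 and 75.8 with DMSO and 47.9 and 49.7 with PFI-3, a change of -0.62 ± 0.12 (0.00277). The treatments did not overlap at either time, and their order was opposite. The DM 24h call was lost without any 1 library of that stage (0.108 to 0.152). In GM the groups overlapped, at 81.9 and 70.0 against 107.9 and 80.1. With PFI-3 its libraries read lower at each later stage, where with DMSO it fell at DM 24h and rose again.

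**Figure D4:**
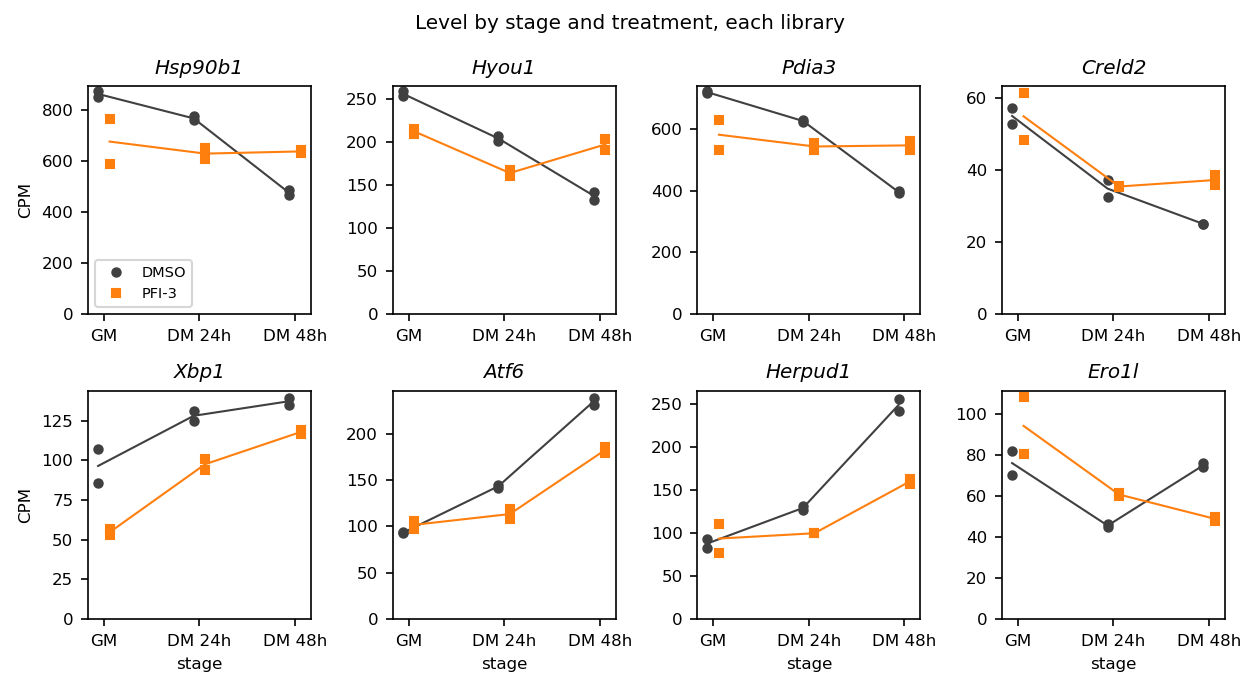
CPM in each library of 8 genes at the 3 stages, with DMSO (dark circles) and PFI-3 (orange squares); lines join group means and every axis starts at 0. The lines of Hsp90b1, Hyou1 and Pdia3 cross between DM 24h and DM 48h, those of Ero1l cross the other way, and the PFI-3 lines of Atf6 and Herpud1 rise less steeply than the DMSO lines.

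Among the sensor genes Xbp1 was lower with PFI-3 early and Atf6 late. Xbp1 stood at 85.8 and 107.2 CPM with DMSO and 52.8 and 56.6 with PFI-3 in GM, a fall of 43.3%, expressed in log2 as -0.82 ± 0.10 (adjusted p 0.000367), the largest PFI-3 effect among the 31 genes at any stage. At DM 24h it stood at 131.4 and 124.8 against 101.0 and 94.2 (-0.39 ± 0.09, 0.0102), and at DM 48h at 135.2 and 139.5 against 118.9 and 116.8 (-0.22 ± 0.09, 0.0994). PFI-3 was the lower group at each stage. The DM 24h call was lost without DMSO library A (0.0854) or PFI-3 library B (0.0937) of that stage.

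Atf6 was not called in GM, at 93.5 and 92.5 CPM with DMSO and 97.3 and 106.1 with PFI-3 (0.13 ± 0.07, adjusted p 0.257). With PFI-3 its level was reduced at DM 24h, at 145.0 and 141.6 against 108.0 and 118.7 (-0.34 ± 0.07, 0.00457), and likewise at DM 48h, at 238.9 and 231.3 against 186.1 and 179.2 (-0.36 ± 0.07, 0.00184). The DM 24h call was lost without PFI-3 library A of that stage (0.0683). Ern1 was higher at DM 24h, at 25.7 and 29.6 against 34.9 and 38.7 (0.41 ± 0.12, 0.0299), a call lost without any 1 library of that stage (0.0568 to 0.212). Ern1 was not called in GM (0.09 ± 0.12) or at DM 48h (0.18 ± 0.13). Eif2ak3 was higher at DM 48h, at 22.0 and 20.1 against 27.9 and 25.2 (0.34 ± 0.10, 0.021), a call lost without DMSO library B (0.159) or PFI-3 library A (0.165) of that stage. Neither its GM change (-0.25 ± 0.10, 0.119) nor its DM 24h change (-0.13 ± 0.09, 0.35) passed.

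The ERAD genes were split at DM 48h, with 3 of 9 higher and 2 lower. Herpud1 stood at 256.9 and 242.1 CPM with DMSO and 163.2 and 157.8 with PFI-3, a fall of 35.7%, or -0.64 ± 0.13 (adjusted p 0.00275). At DM 24h it was lower in both libraries, at 100.3 and 99.8 against 132.1 and 126.9, and missed the threshold (-0.37 ± 0.13, 0.056), and in GM its groups overlapped. Edem3 was lower at DM 48h (-0.24 ± 0.08, 0.0336), and limma on log2(FPKM + 1) did not call it (0.231). Os9, a lectin that delivers glycoproteins to the HRD1 complex, was higher at DM 24h (0.33 ± 0.07, 0.00477) and DM 48h (0.33 ± 0.07, 0.00343). Its DM 48h libraries read 109.8 and 101.2 with DMSO and 132.5 and 133.0 with PFI-3. The Os9 calls were lost without DMSO library A of DM 24h (0.0668) and DMSO library B of DM 48h (0.0541). Edem2 (0.38 ± 0.10, 0.0176) and Edem1 (0.24 ± 0.08, 0.0366) were higher at DM 48h. Without DMSO library A, PFI-3 library A or PFI-3 library B of DM 48h the Edem2 adjusted p was 0.139, 0.084 or 0.0813. For Edem1 and Edem3 the call was lost without any 1 library of that stage (0.121 to 0.162 and 0.0959 to 0.17), and for Edem1 also without DMSO library B, PFI-3 library A or PFI-3 library B of DM 24h (0.0513 to 0.057). Sel1l, the HRD1 adaptor, was the 1 gene called higher in GM (0.25 ± 0.07, 0.0387), a call lost without any 1 DM library (0.0598 to 0.0671), GM DMSO library A (0.0947) or GM PFI-3 library A (0.159). Syvn1 (the ligase HRD1), Derl1 and Derl2 were not called at any stage.

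Whether the PFI-3 effect differed between stages was tested as the difference between effects, which is not a test of a change of sign. Xbp1, for example, was called between GM and DM 48h although PFI-3 was its lower group at each stage. GM and DM 48h share no library, and Calr, Dnajc10, Hsp90b1, Hyou1, P4hb, Pdia3 and Pdia4 were called lower in GM and higher at DM 48h, which is 7 of the 12 genes called lower in GM and 7 of the 13 called higher at DM 48h. Of these, Hyou1 and Pdia4 kept both calls without any 1 library. A fit of only the GM libraries called none of the 31 genes in GM, Hyou1 and Pdia4 included. How many of all genes were called lower in GM and higher at DM 48h was not counted, so no background stands beside the 7. The effect at DM 48h minus that in GM was called for 20 of 31 genes (16 higher, 4 lower), where 14.5% of all genes were called (8.25% higher, 6.29% lower). The median difference was 0.41, beside 0.021 over all genes. Against DM 24h, 13 were called (12 higher, 1 lower), with 12.1% of all genes called (7.12% higher, 4.97% lower). Between GM and DM 24h, 1 gene was called, Atf6 (-0.47 ± 0.10, adjusted p 0.028), with 3.37% of all genes called (1.78% higher, 1.59% lower; 223 against 200 genes, and 196 against 399 with limma on log2(FPKM + 1)). That call was lost without any 1 DM library (0.0542 to 0.148).

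Hyou1 showed the largest difference between DM 48h and DM 24h on the higher side (0.84 ± 0.09, adjusted p 0.000114) and differed by 0.79 ± 0.09 between DM 48h and GM (0.000163). Pdia3 differed by 0.77 ± 0.11 from GM (0.000553) and by 0.67 ± 0.11 from DM 24h (0.00154). Hsp90b1 differed by 0.78 ± 0.14 (0.00267) and 0.71 ± 0.14 (0.00511), and Pdia4 by 0.69 ± 0.09 (0.000393) and 0.46 ± 0.09 (0.00577). Dnajc10 differed by 0.56 ± 0.09 (0.00168) and 0.53 ± 0.09 (0.00253). Ero1l was called on the other side, at -0.92 ± 0.17 from GM (0.00354) and -1.03 ± 0.17 from DM 24h (0.00233). The calls of these 6 genes were kept without any 1 library in both comparisons. From GM, the calls of Atf6, Calr, Hspa5, P4hb and Xbp1 were also kept, that of Xbp1 with an adjusted p of up to 0.0496, and it was lost in a fit of only the GM and DM 48h libraries (0.0508). That fit also lost the calls of Canx, Creld2, Dnajb11, Eif2ak3, Herpud1, Manf, Pdia6 and Sdf2l1 (0.0632 to 0.124). The count was 12 without DMSO library A or PFI-3 library B of DM 48h and 13 without DMSO library B. From DM 24h, the count was between 6 and 8 without any 1 DM library.

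The same values can be read as courses. The DM 48h mean of Hsp90b1 was 0.551 times its GM mean with DMSO and 0.943 times with PFI-3. For Hyou1 these ratios were 0.537 and 0.929, for Pdia3 0.551 and 0.941, and for Calr 0.596 and 0.95. For Herpud1 they were 2.83 and 1.71, and for Atf6 2.53 and 1.8. Vehicle levels at DM 48h enter both the stage comparison and the PFI-3 comparison, so these are not separate pieces of evidence.

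The 9 genes with an ERSE were set beside the 19 others with a promoter window, as a description. Of the 8 tested genes with an ERSE, 7 fell and 1 rose from GM to DM 48h in vehicle (median -0.71), beside 7 lower and 6 higher of the 19 without one (median -0.02) and 35.9% lower over all genes. The 7 that fell are all folding genes and the 1 that rose, Syvn1, is an ERAD gene, so element and role were not separated. Of the folding genes with a window and no ERSE, Pdia4, P4hb and Sdf2l1 also fell. Dnajb9 rose, and Dnajb11, Ero1l and Ppib were not called. With PFI-3, 4 of the 8 were called higher at DM 48h (Calr, Creld2, Hsp90b1 and Hspa5), with a median of 0.26. Of the 19 tested genes without one in the window, 8 were called higher and 4 lower, with a median of 0.18. Herpud1, with an ERSE-II, and Dnajb9, Edem3 and Ero1l, with neither, were among those called lower. Genes with and without the element were thus found on the higher side.

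The ATF4 arm downstream of PERK was read from a list of 22 genes. With PFI-3, 7 rose and 1 fell in GM. At DM 24h 4 rose and 6 fell, while at DM 48h 1 rose and 3 fell. The shares called were 36.4%, 45.5% and 18.2%, beside 11.6%, 23.6% and 27.4% of all genes, so that of DM 48h lay below the background. Their medians were 0.28, -0.35 and -0.18. The 3 lowest p-values in GM were those of Cebpb (0.55 ± 0.08), Vldlr (2.39 ± 0.35) and Atf5 (0.87 ± 0.15). Atf5, an ATF4 target and itself a transcription factor, stood at 112.9 and 107.6 CPM with DMSO and 247.3 and 156.9 with PFI-3 in GM, and at 92.1 and 83.9 against 36.4 and 37.1 at DM 48h (-1.26 ± 0.17, adjusted p 0.000176). Its PFI-3 effect was lower at DM 24h and DM 48h than in GM by 1.75 ± 0.23 and 2.13 ± 0.23 on the log2 scale. The 2 PFI-3 libraries of GM lay far apart for this arm: Trib3, an ATF4 target named here after its values were seen, stood at 54.8 and 12.4 CPM there and at 8.94 and 7.38 with DMSO. The GM calls of this list also rest partly on the closer DM replicates. A fit of only the GM libraries called 38 of all genes. At DM 24h the lowest p-values were those of Vldlr (2.00 ± 0.26), Slc7a11 (-0.48 ± 0.07) and Cebpb (0.50 ± 0.08), and at DM 48h, beside Atf5, those of Sesn2 (0.69 ± 0.12) and Asns (-0.88 ± 0.28).

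A list of 71 other ER genes (translocon, oligosaccharyltransferase, further folding and ERAD factors) was read in the same way. With PFI-3, 1 rose and 10 fell in GM, 2 rose and 11 fell at DM 24h, whereas 20 rose and 3 fell at DM 48h. The shares called, 15.5%, 18.3% and 32.4%, lay near those of all genes (11.6%, 23.6% and 27.4%). Their medians were -0.09, -0.09 and 0.09. In GM the 3 lowest p-values were those of Creb3l1 (-1.04 ± 0.09), an ER membrane transcription factor of secretory cells, Serpinh1 (-0.48 ± 0.06), the collagen chaperone HSP47, and Rpn1 (-0.33 ± 0.06), an oligosaccharyltransferase subunit. Both Creb3l1 and Serpinh1 were lower at DM 24h as well (-0.80 ± 0.09 and -0.61 ± 0.06), as was the translocon-associated Ssr1 (-0.33 ± 0.06). At DM 48h the lowest p-values were those of Uggt1 (0.50 ± 0.06), which returns misfolded glycoproteins to calnexin, and of the oligosaccharyltransferase subunits Rpn2 (0.47 ± 0.06) and Stt3a (0.45 ± 0.06). Of the 71, 23 (32.4%) had a PFI-3 effect called higher at DM 48h than in GM and 0 lower. Over all genes 8.25% were called higher and 6.29% lower. The difference was negative for 14 of the 71. At an unadjusted p under 0.05 in the edgeR test, 32 of the 71 passed in either direction, beside 3645 of all 12545 genes.

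Derl1, Derl2, Dnajc3, Ppib, Sdf2l1 and Syvn1 were not called in any PFI-3 comparison within a stage. Their changes at DM 48h lay between -0.16 (Derl1) and 0.35 (Sdf2l1). Sdf2l1 was low, between 8.18 and 17.4 CPM, and the standard errors of its PFI-3 effects, 0.16 to 0.17, were the widest of the list. Its DM 48h effect differed from that in GM by 0.79 ± 0.24 (adjusted p 0.0421), a call lost without DMSO library B of GM (0.083), PFI-3 library A of GM (0.0927) or any 1 DM library (0.066 to 0.153).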

How the data were processed

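RNA of C2C12 cells was sequenced in 12 libraries, 2 for each of 6 groups of stage and treatment. The groups and the replicate letters come from the sample titles. The sequencing provider prepared the libraries and ran the processing, per the labels' protocols. The submitters' processing notes name HISAT, StringTie, Cufflinks, Bowtie, RSEM and DESeq2 and the build mm10, without roles or versions. Before deposit, the authors estimated an expected count for each gene and library from the aligned reads, per the file headers, and did not pool replicates. The authors also deposited FPKM values, which are fragments corrected for transcript length and depth, per the file headers. Genes missing from a table were taken as 0. Whether reads were counted by strand is not given either.

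Expected counts were rounded to whole numbers, filtered with filterByExpr, scaled by TMM and tested with edgeR 4.0.16 (R 4.3.3) by its quasi-likelihood test, in 1 model of 6 groups over 12 libraries. P-values were adjusted over all 12545 genes by the Benjamini-Hochberg method, and calls were made at 0.05. CPM are counts relative to the TMM-scaled library total. Fold changes are log2 with standard errors from the same test. Genes were named by a rule: all 32 genes of the list, with full values for those called with PFI-3 and for Hspa5, Hsp90b1, Xbp1, Atf6, Ern1 and Eif2ak3 in every case, and the 3 lowest p-values per comparison of 2 context lists. The genes, lists and tests were chosen with earlier results of these data known. Alternatives were DESeq2-style size factors, DESeq2 1.42.0, no low-count filter, limma 3.58.1 on log2(FPKM + 1) and log2(FPKM + 0.1), fits of only the libraries compared, a replicate letter term, and leaving out each library. A fit without the GM libraries was added after seeing the data. The edgeR test was checked on simulated counts that had the same spread in all groups. That check therefore does not cover the wider spread of the GM replicates. Promoters are from RefSeq tables of GRCm38.p6, the assembly also known as mm10. Protein sequences were not used here. Other tables, and all plots, used Python 3.11.15, pandas 2.3.3 and matplotlib 3.10.9.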

Additional observations from a re-analysis of the deposited data

Results flagged for a closer look

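By the interaction test of edgeR, the response to PFI-3 was not the same at 2 stages (adjusted p under 0.05) for the genes given here, with the log2 difference and the adjusted p. From GM to DM 24h the effect on Atf6 changed by -0.47 (0.028). From GM to DM 48h the effect became higher for Calr (0.67, 0.00403), Canx (0.35, 0.0155), Creld2 (0.57, 0.0326), Dnajb11 (0.40, 0.0273), Dnajc10 (0.56, 0.00168), Eif2ak3 (0.59, 0.0139), Hsp90b1 (0.78, 0.00267), Hspa5 (0.48, 0.0057), Hyou1 (0.79, 0.000163), Manf (0.49, 0.0155), P4hb (0.56, 0.00269), Pdia3 (0.77, 0.000553), Pdia4 (0.69, 0.000393), Pdia6 (0.52, 0.0165), Sdf2l1 (0.79, 0.0421) and Xbp1 (0.60, 0.0107). Over the same interval it became lower for Atf6 (-0.49, 0.00559), Edem3 (-0.40, 0.0301), Ero1l (-0.92, 0.00354) and Herpud1 (-0.73, 0.0198). From DM 24h to DM 48h the effect became higher for Calr (0.52, 0.0199), Canx (0.38, 0.0126), Dnajc10 (0.53, 0.00253), Edem1 (0.37, 0.0408), Eif2ak3 (0.46, 0.0415), Hsp90b1 (0.71, 0.00511), Hspa5 (0.42, 0.0129), Hyou1 (0.84, 0.000114), Manf (0.45, 0.0294), Pdia3 (0.67, 0.00154), Pdia4 (0.46, 0.00577) and Pdia6 (0.42, 0.0488), and lower for Ero1l (-1.03, 0.00233). The 2 lists share the DM 48h libraries. Besides those of Sdf2l1 and of the DM 24h effect on Atf6, given above, these calls were lost without 1 library. From GM, the Canx and Pdia6 calls were lost without DMSO library A or PFI-3 library B of DM 48h (0.0714 to 0.0849), and that of Eif2ak3 without DMSO library B or PFI-3 library A (0.0663 and 0.0669). The Manf call was lost without either DMSO library or PFI-3 library B of DM 48h (0.0565 to 0.0723). Those of Herpud1 (0.0511 to 0.0802), Dnajb11 (0.0565 to 0.116), Edem3 (0.0537 to 0.109) and Creld2 (0.0545 to 0.126) were lost without any 1 DM 48h library. PFI-3 library A of GM also ended the last 3 calls, DMSO library A of GM that of Edem3, and either PFI-3 library of DM 24h that of Creld2, and the ranges cover these libraries too. From DM 24h, the Calr, Edem1, Eif2ak3, Manf and Pdia6 calls were lost without any 1 DM library (0.052 to 0.174). The Canx call was lost without any 1 DM 24h library or without DMSO library A or PFI-3 library B of DM 48h (0.0572 to 0.0792). That of Hspa5 was lost without DMSO library A or PFI-3 library B of either DM stage (0.0669 to 0.0726).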

How the results depend on the processing

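Of the 31 genes' values under all alternatives, 5171 kept their side of the threshold, 162 passed it newly, 371 lost it, and no called value changed sign. The number of genes called with PFI-3 in GM went from 13 to 5 with limma on log2(FPKM + 1) and to 5 with log2(FPKM + 0.1), to 0 when the model held only those 4 libraries and to 3 in this restricted fit with the replicate block. Leaving out 1 library gave 6 to 18. At DM 24h the count went from 11 to 17 in a fit restricted to the compared libraries, to 17 with the replicate block in that fit and to 17 without the 4 GM libraries, and leaving out 1 library gave 3 to 14. At DM 48h leaving out 1 library gave 11 to 21, beside 18. For the effect at DM 24h minus that in GM the count went from 1 to 0 in the restricted fit and to 2 with the replicate block in it, and leaving out 1 library gave 0 to 4. For DM 48h minus GM it went from 20 to 11 in the restricted fit, and leaving out 1 library gave 12 to 21. For DM 48h minus DM 24h it went from 13 to 20 in that fit, to 21 with the replicate block in it and to 20 without the 4 GM libraries, and leaving out 1 library gave 6 to 16. Counts over all genes moved with the restricted fit too. They were 38 against 1456 in GM and 5603 against 2966 at DM 24h. For DM 24h minus GM they were 92 against 423, and for DM 48h minus GM 1033 against 1824. For DM 48h minus DM 24h they were 4170 against 1517. Leaving out a library of a group leaves 1 there, which is assumed to vary like the other groups. The counts of the 3 vehicle comparisons stayed within 1.5 times under every alternative. The letters A and B do not establish pairs: the correlation of the B minus A differences between treatments was 0.488 for the GM groups and 0.018 and 0.037 for DM 24h and DM 48h. With the replicate block in the model of 12 libraries the counts with PFI-3 were 13, 12 and 18. That block is 1 term for all stages, so these counts say little about a letter difference present in GM alone. In the fit of only the 4 GM libraries the block took the calls over all genes from 38 to 922. No scaling moved the median of all genes by over 0.1 on the log2 scale, but the shifts were not small beside the effects described. With limma on log2(FPKM + 0.1) the PFI-3 median of all genes was 0.081 in GM, against -0.01 with edgeR. At DM 48h it was 0.085 against 0.001. The edgeR medians of the 31 genes were -0.22 and 0.18 at these stages. Depth limits Derl3, which was not tested.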
